A study of Mus musculus with 16 samples.

Results

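A set of 7 genes of hepatic glucose production and glucose transport was followed across 4 feeding groups of mice: the gluconeogenic enzymes Pck1, Fbp1, G6pc and Pcx, the reversible glycolytic enzymes Pgk1 and Eno1, and the glucose carrier Slc2a2. They were picked by gene symbol with earlier results of these data known, and the 7 symbols found are part of 20826 in the table. Liver RNA came from 16 male C57BL/6J mice listed as 4 weeks old and fed for 18 weeks, with 4 mice per group and 1 library per mouse. Normal diet (10% fat) was given to the N group and high-fat diet (45% fat) to the HF group. NW and HFW mice ate the same diets containing 1% WEPAK, water-soluble material extracted from Pacific krill. The labels name no genetic change in any group, and mice are named here by group and number.

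The liver makes glucose from lactate, amino acids and glycerol during fasting. Pyruvate carboxylase (Pcx) turns pyruvate into oxaloacetate in mitochondria, and cytosolic phosphoenolpyruvate carboxykinase (Pck1) turns oxaloacetate into phosphoenolpyruvate. Enolase (Eno1) and phosphoglycerate kinase (Pgk1) catalyse steps that run in either direction. Fructose-1,6-bisphosphatase (Fbp1) and the catalytic subunit of glucose-6-phosphatase (G6pc) then bypass the one-way steps of glycolysis, and the carrier GLUT2 (Slc2a2) moves glucose across the hepatocyte membrane. Insulin lowers and glucagon raises transcription of Pck1 and G6pc.

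SuperSAGE counts a short tag next to the NlaIII site (CATG) nearest the poly(A) tail of each captured transcript, so a gene is read through 1 stretch of sequence. The 26-base tag expected for each member is given below, though how the deposited counts were matched to tags is not known here. It was taken at the last NlaIII site with room for 26 bases before the transcript's end. In the Pcx entry with tags, a later site too near the end was passed over. Each tag was read from the GENCODE M21 transcript paired with the member's RefSeq entry, 5′ to 3′, with the NlaIII site in capitals.
Pck1: CATGttgctttgttgctagtatgtat
Fbp1: CATGctataatgccactgtatcaggt
G6pc: CATGtgcagtattttattaaagcaac
Pcx, entry with tags: CATGggacagcacacacactacctgc
Pcx, entry without tags: CATGtacagtctaccgcaccctagtg
Pgk1: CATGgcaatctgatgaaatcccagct
Eno1: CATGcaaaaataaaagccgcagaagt
Slc2a2: CATGtacttgtgatttttaataaaat
All lie in the 3′ UTR within the last exon, in GRCm38 at chr2:173159132-173159157 (Pck1, plus strand), chr13:62864809-62864834 (Fbp1, minus strand), chr11:101377867-101377892 (G6pc, plus strand), chr19:4621415-4621440 and chr19:4621686-4621711 (the 2 Pcx entries, plus strand), chrX:106203617-106203642 (Pgk1, plus strand), chr4:150248845-150248870 (Eno1, plus strand) and chr3:28731064-28731089 (Slc2a2, plus strand). The Eno1 tag also occurs in transcripts of 1 other gene, Eno1b, and the tags of the other members occur at NlaIII sites of no other GENCODE gene. The release behind the deposited table may differ from this annotation.

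Libraries held 56655 to 149349 tags in named genes. The HF libraries were the deepest, with 91468 to 149349 tags, against 64724 to 100426 in N, 57642 to 120143 in NW and 56655 to 101481 in HFW. Levels are given in CPM, tag counts per 1000000 counts of the scaled library total of the 1046 genes that had enough tags to be tested, and 5 of the 7 members are among them. Tag totals over the 16 libraries were 3890 for Fbp1, 657 for Pck1, 562 for Slc2a2, 349 for Pcx, 193 for Pgk1, 1 for G6pc and 0 for Eno1. Since 1 site is read per transcript, no correction for length was made, and levels are compared between groups only. All 9 hepatocyte markers looked up, Alb and Apoa2 among them, had tags, and all 5 adipocyte markers were at 0. A value of 0 does not show that a transcript was absent, since Gapdh was also at 0. In bulk liver, fewer cells of a type and less RNA per cell cannot be told apart.

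Pck1, the enzyme that commits carbon to glucose synthesis, rose with WEPAK over both diets. It stood at 302, 377, 538 and 901 CPM in N mice 4, 5, 7 and 8, and at 1232, 912, 973 and 766 CPM in NW mice 11, 12, 15 and 20. In HF mice 23, 25, 28 and 29 it was at 285, 233, 231 and 412 CPM, and in HFW mice 34, 36, 38 and 40 at 904, 474, 442 and 393 CPM. NW was high throughout and HF low throughout, and these 2 groups did not overlap, whereas N mouse 8 and HFW mouse 34 reached into the NW range. Group means ran from 971 ± 195 CPM (SD, n = 4) in NW through 553 ± 236 in HFW and 529.6 ± 266 in N to 290.4 ± 84.7 in HF. The mean log2 fold change with WEPAK over both diets was 0.92 (SE 0.23), a 1.89-fold rise, with 4 of 4 NW and 4 of 4 HFW mice above the mean of the group on the same diet without extract (adjusted p = 0.00320 in edgeR's quasi-likelihood F test, Benjamini-Hochberg over all genes tested). No neighbours in the order of groups differed past the threshold, with adjusted p of 0.344 for HFW against NW, 0.941 for HFW against N and 0.432 for HF against N in the same edgeR fit. In HFW against N the log2 fold change was 0.093, with a 95% interval from -0.57 to 0.76.

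Transcription of Pck1 answers to cyclic AMP through a short element near its start, and its proximal promoter is shown for that reason. The 250 bases before the RefSeq start, at chr2:173152823-173153072 in GRCm38.p6 (plus strand), are printed 5′ to 3′ with their only match to the searched motifs in capitals.
Pck1 promoter: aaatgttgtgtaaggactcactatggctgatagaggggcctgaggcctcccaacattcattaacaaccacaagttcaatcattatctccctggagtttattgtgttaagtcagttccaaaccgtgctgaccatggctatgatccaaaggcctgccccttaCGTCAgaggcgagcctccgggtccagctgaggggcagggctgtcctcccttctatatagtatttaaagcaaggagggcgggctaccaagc
The match is the core of the cyclic AMP response element, TGACG, read on the other strand at base -90 from the start. Searched on both strands were TGACG, the full element TGACGTCA that contains it, GTAAACA (bound by FOXO factors), CAAAGTCCA (HNF4) and CACGTG (E-box). Of 32851 RefSeq promoter windows of 300 bases, 20.8% hold TGACG. Promoter windows were found for all 7 members, and the only other match was a CACGTG at base -248 of 1 of the 2 Pcx windows, a motif held by 7.15% of all windows. The other letters named above were not in these windows.

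Fbp1, which removes a phosphate from fructose-1,6-bisphosphate, carried the most tags of the 7 genes and rose with WEPAK over both diets and on the high-fat diet alone. It was at 1546, 3867, 3244 and 2514 CPM in N mice 4, 5, 7 and 8, and at 5062, 4098, 4272 and 5753 CPM in the NW mice in the order above. The HF mice had 1593, 2352, 1545 and 1829 CPM and the HFW mice 3434, 2151, 4311 and 5333 CPM. Every NW mouse lay above every N and every HF mouse, and on the high-fat diet the groups overlapped only because HFW mouse 36 lay below HF mouse 25. Means were 4796 ± 763 CPM (SD, n = 4) in NW, 3807 ± 1349 in HFW, 2793 ± 998 in N and 1829.8 ± 369.7 in HF. The log2 fold change was 0.92 (SE 0.20) for WEPAK over both diets (adjusted p = 0.00113, edgeR quasi-likelihood F test) and 1.06 (SE 0.28) in HFW against HF, higher in 4 of 4 HFW mice (adjusted p = 0.0175). The second call was lost without HF mouse 23 (0.98, adjusted p = 0.0666), HFW mouse 38 (0.98, adjusted p = 0.0612) or HFW mouse 40 (0.81, adjusted p = 0.0915), and with no filter on low counts (0.83, adjusted p = 0.108 by edgeR). Neighbouring groups in the order of levels did not differ past the threshold by edgeR, with adjusted p of 0.615 for HFW against NW, 0.542 for HFW against N and 0.485 for HF against N.

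Slc2a2, the low-affinity carrier that lets glucose in and out of hepatocytes, followed the same order of groups. N mice 4, 5, 7 and 8 had 269, 334, 359 and 582 CPM, the NW mice 731, 432, 909 and 746 CPM, the HF mice 321, 311, 370.0 and 268 CPM, and the HFW mice 629, 375, 673 and 616 CPM. HF and HFW did not overlap, but only by the gap between 370.0 CPM in HF mouse 28 and 375 CPM in HFW mouse 36, and NW mouse 12 fell into the N range. Means were 705 ± 199 CPM (SD, n = 4) in NW, 573 ± 134 in HFW, 386 ± 136 in N and 317 ± 41.8 in HF. WEPAK over both diets gave a log2 fold change of 0.86 (SE 0.21), a 1.81-fold rise (adjusted p = 0.00259, edgeR quasi-likelihood F test), with 4 of 4 mice of each extract group above the mean of their diet's other group. With no filter on low counts it did not pass (0.73, adjusted p = 0.0507 by edgeR). The value was 0.86 (SE 0.29) in HFW against HF and 0.86 (SE 0.30) in NW against N, and neither passed alone (adjusted p = 0.0537 and 0.0532 by edgeR). Its adjusted p between neighbouring groups was 0.720 for HFW against NW, 0.409 for HFW against N and 0.784 for HF against N.

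Pgk1, which makes ATP in glycolysis and runs backwards in gluconeogenesis, rests on few tags, between 4 and 28 per library. It had 67.2, 172, 105 and 188 CPM in N mice 4, 5, 7 and 8, and 269, 269, 169 and 432 CPM in the NW mice. The HF mice had 95.1, 56.5, 120.2 and 134 CPM and the HFW mice 144, 158, 147 and 159 CPM. HFW lay above HF and below NW with no overlap, on 7 to 15 tags per library in HFW, 8 to 14 in HF and 8 to 28 in NW. The HFW spread, a coefficient of variation of 5.0%, was narrower than counting error. Counting alone gives 28.8% at the mean of 12.1 tags over all libraries, so the lack of overlap leans on that narrow spread. Means were 285 ± 109 CPM (SD, n = 4) in NW, 152 ± 7.60 in HFW, 133 ± 56.8 in N and 101.5 ± 34.0 in HF. It rose with WEPAK over both diets by a log2 fold change of 0.84 (SE 0.27), a 1.79-fold rise (adjusted p = 0.0178, edgeR quasi-likelihood F test). This call was lost without N mouse 4 (0.72, adjusted p = 0.0514), without N mice 4 and 8 (0.77, adjusted p = 0.0609) and with no filter (0.71, adjusted p = 0.273), and Pgk1 had too few tags to be tested once all libraries were thinned to the smallest total. Neighbouring groups had adjusted p of 0.361 for HFW against NW, 0.909 for HFW against N and 0.744 for HF against N by edgeR.

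Pcx, the mitochondrial entry enzyme of gluconeogenesis, did not separate the groups. All 349 of its tags were listed under 1 of its 2 RefSeq entries. Its level was 286, 237, 344 and 432 CPM in the N mice, 519.7, 249.5, 233 and 275 CPM in the NW mice, 178, 254, 351 and 220.2 CPM in the HF mice and 262, 414.5, 189 and 255 CPM in the HFW mice. Every pair of groups overlapped, and the means were 324.5 ± 83.7 CPM (SD, n = 4) in N, 319 ± 135 in NW, 280.2 ± 95.3 in HFW and 251 ± 73.8 in HF. The WEPAK effect over both diets was 0.058 on the log2 scale with a 95% interval from -0.41 to 0.53 (adjusted p = 0.872, edgeR quasi-likelihood F test), so the upper bound lies below the 0.92 of Pck1, a difference between genes that was not tested. Without NW mouse 11 it was -0.075.

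G6pc, whose product performs the last step of glucose release, was listed with 1 tag, in HFW mouse 36, and Eno1 with none. A count of 0 allows up to 3 tags, which is 21.2 to 63.5 CPM in a single library and covers counting error only. No fold change is given for either gene. Among RefSeq entries whose expected tag is shared with no other gene 43.0% had at least 1 tag, against 26.05% of those sharing it with 1 other gene, as Eno1 does. The G6pc tag starts 37 bases from the transcript's end, and 41.6% of entries with an unshared tag starting under 50 bases from the end had a tag. Gapdh, a glycolytic enzyme that every cell uses, was also listed at 0, so a listing at 0 in this table does not show that a transcript was absent. How tags were matched to transcripts is not given in the sources used here.

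**Figure D1:**
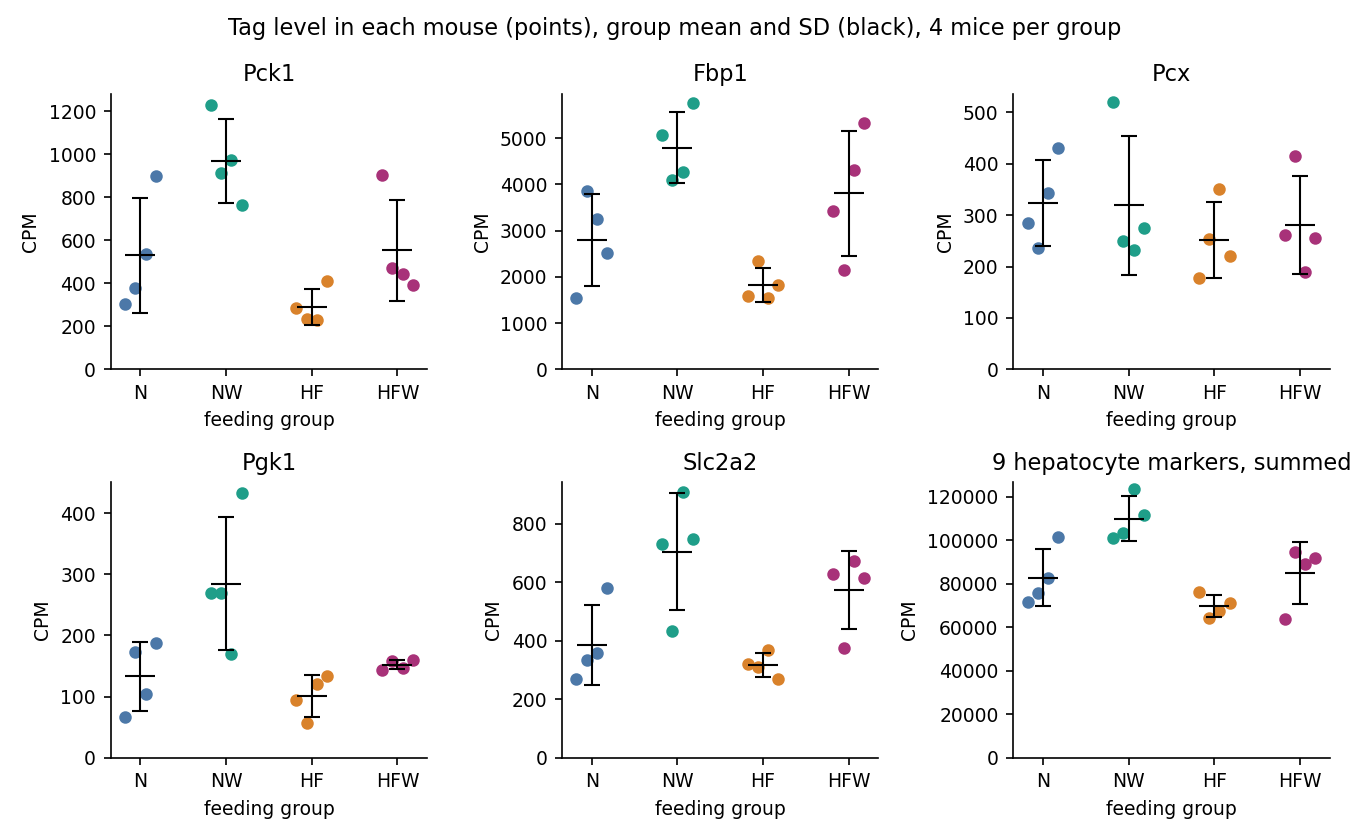
Level in CPM (vertical axes) of the 5 tested genes in each of the 16 mice by feeding group (horizontal axes), and in the last panel the summed level of 9 hepatocyte markers; points are mice, black bars the group mean and SD. Pck1, Fbp1, Slc2a2 and Pgk1 are highest on average in NW and lowest in HF, while the 4 groups of Pcx overlap.

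The main question of the design is what the extract changed. Of the 5 tested members 4 rose with WEPAK over both diets and 0 fell, and 15.2% of all 1046 genes were called higher in that comparison. The median log2 fold change was 0.86 over the 5 genes and 0.025 over all genes. Because the members were chosen with earlier results of these data known, setting them against all genes is a description and not a test. Within the high-fat diet 1 of 5 rose, Fbp1, where 4.21% of all genes were called higher and 5.64% lower; 3 of 5 had an unadjusted p under 0.05. On the normal diet 0 of 5 passed, where 3.63% of all genes were called higher and 7.36% lower, and 4 of 5 had an unadjusted p under 0.05. There the log2 fold changes were 0.89 (SE 0.32) for Pck1, 0.77 (SE 0.28) for Fbp1 and 1.07 (SE 0.38) for Pgk1, with adjusted p between 0.0532 and 0.0667 by edgeR. Groups did not overlap for Pgk1 and Slc2a2 on the high-fat diet, where 6.79% of all genes lay higher without overlap, and for Fbp1 on the normal diet, where 6.6% did. The DESeq2 Wald test called 2 of 5 on the normal diet, Fbp1 and Slc2a2, where 11.6% of all genes given an adjusted p were called in either direction. With limma-voom 1 was called, Pck1, where 9.18% of all genes were.

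On the high-fat diet the values for the other genes were 0.94 (SE 0.33) for Pck1 (adjusted p = 0.0587 by edgeR) and 0.60 (SE 0.39) for Pgk1 (adjusted p = 0.311). The adjusted p of Pck1 ran from 0.0335 without HF mouse 29 to 0.264 without HFW mouse 34 (0.58). Slc2a2 passed there without HF mouse 28 (0.92, adjusted p = 0.0460) and without HFW mouse 36 (0.99, adjusted p = 0.0405). Of all genes 10.5% were called without HF mouse 29, 14.1% without HF mouse 28 and 7.66% without HFW mouse 36. On the normal diet 3 genes passed once N mouse 8, which had the highest Pck1, Slc2a2 and Pgk1 CPM of its group, was left out. Without it the values were 1.32 for Pck1 (adjusted p = 0.00622), 1.17 for Slc2a2 (adjusted p = 0.0110) and 1.31 for Pgk1 (adjusted p = 0.0258), all by edgeR. In that fit 14.6% of all genes were called in either direction, against 11.0% with all mice. The filter on low counts was run again whenever a mouse was left out, and without N mouse 8 it kept 1216 genes. With all mice and at least 10 counts in 4 libraries, Pgk1 (adjusted p = 0.0497) and Slc2a2 (adjusted p = 0.0488) also passed by edgeR. There 9.92% of all genes were called. With all mice Pck1 passed with limma-voom (adjusted p = 0.0415). Fbp1 passed on the normal diet without N mouse 5 (0.97, adjusted p = 0.0459), Slc2a2 without NW mouse 12 (1.05, adjusted p = 0.0341) and Pgk1 without NW mouse 15 (adjusted p = 0.0472). These fits called 8.21%, 7.07% and 4.19% of all genes in either direction, in that order.

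**Figure D2:**
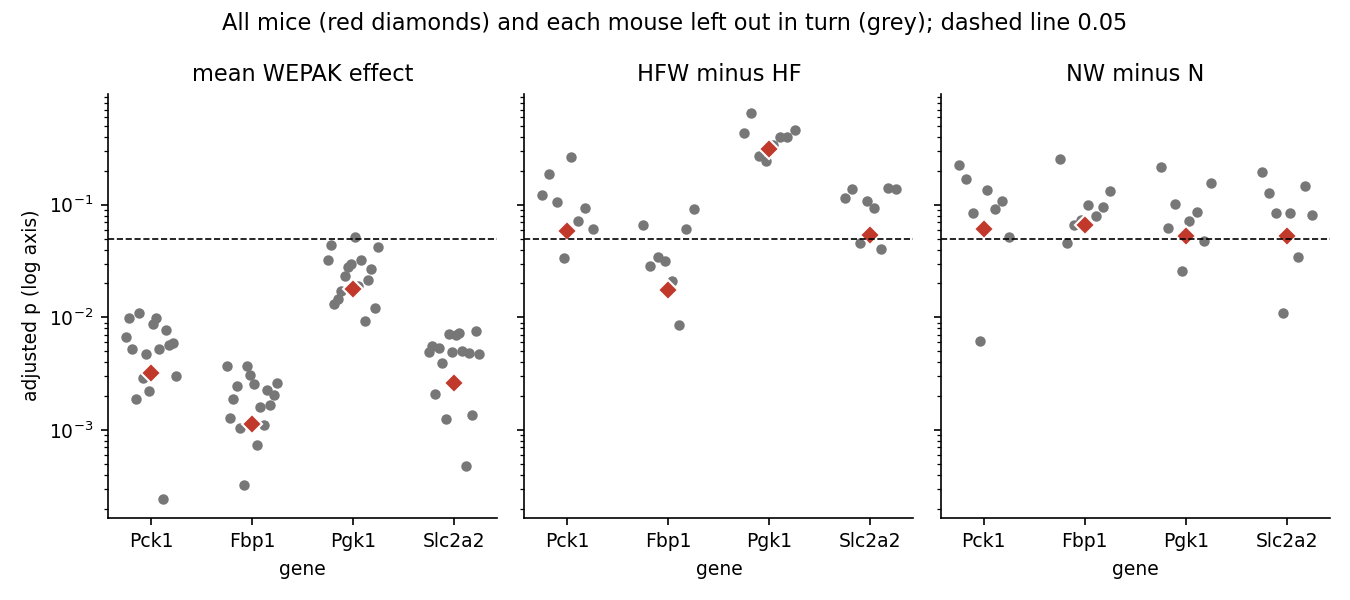
Adjusted p on a log axis for Pck1, Fbp1, Pgk1 and Slc2a2 with all mice (red diamonds) and with each mouse left out in turn (grey points), for the WEPAK effect over both diets and on each diet; the dashed line is 0.05. Over both diets 15 of the 16 fits kept Pgk1 under the line and all 16 kept the other 3 genes, while within a diet the points lie on both sides of it, except for Pgk1 on the high-fat diet, where all lie above.

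Whether the extract acted differently on the 2 diets was tested as the difference of the 2 extract effects, high-fat minus normal. It was 0.052 on the log2 scale for Pck1 (95% interval -0.88 to 0.98), 0.28 for Fbp1 (-0.53 to 1.10), -0.000833 for Slc2a2 (-0.84 to 0.84) and -0.47 for Pgk1 (-1.58 to 0.63). By edgeR 0 of 5 members passed, 0 had an unadjusted p under 0.05, and 0% of all genes were called. These intervals are wide enough to hold differences of about the size of the extract effects themselves.

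The high-fat diet went with lower values of all 5 tested members, without a call. Over both extract states the log2 fold change was -0.82 (SE 0.23) for Pck1 (adjusted p = 0.0614, edgeR quasi-likelihood F test), -0.66 (SE 0.27) for Pgk1, -0.47 (SE 0.20) for Fbp1, -0.26 (SE 0.21) for Slc2a2 and -0.26 (SE 0.23) for Pcx. By edgeR 0 of 5 passed and 3 of 5 had an unadjusted p under 0.05, where 0.574% of all genes were called. A Wald test in DESeq2 called Pck1 (-0.82, adjusted p = 0.0323), and edgeR called it without N mouse 4 (-0.91, adjusted p = 0.00865), HF mouse 29 (-0.92, adjusted p = 0.0452) or HFW mouse 34 (-1.0, adjusted p = 0.0381), and Fbp1 passed without N mouse 4 (-0.57, adjusted p = 0.0479). In HF against N alone the values were -0.85 (SE 0.33) for Pck1, -0.61 (SE 0.28) for Fbp1, -0.42 (SE 0.40) for Pgk1, -0.34 (SE 0.32) for Pcx and -0.26 (SE 0.30) for Slc2a2. There 0 of 5 passed by edgeR, DESeq2 or limma-voom, 2 of 5 had an unadjusted p under 0.05, and 0.0956% of all genes were called. The Slc2a2 value turned to 0.011 with thinned libraries and to 0.028 without N mouse 8. With the extract in both diets, HFW against NW, the values were -0.80 (SE 0.32) for Pck1 and -0.89 (SE 0.37) for Pgk1, again with 0 of 5 past the threshold by edgeR, DESeq2 or limma-voom, 2 of 5 at an unadjusted p under 0.05 and 0% of all genes called. Pgk1 was the 1 member whose groups did not overlap there, as for 3.06% of all genes in that direction. In HFW against N, 0 of 5 passed by edgeR, DESeq2 or limma-voom, 0 had an unadjusted p under 0.05, and edgeR called 0% of all genes.

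The widest gap lay between the 2 groups that differ in both fat and extract. HF was below NW by a log2 fold change of -1.74 (SE 0.32) for Pck1, a 3.34-fold difference, -1.50 (SE 0.37) for Pgk1, -1.39 (SE 0.28) for Fbp1 and -1.12 (SE 0.29) for Slc2a2, with adjusted p between 0.000162 and 0.00330 by edgeR. For these 4 genes the groups did not overlap. Among all genes 16.1% were called lower and 16.1% lay lower without overlap. The Slc2a2 call was lost with no filter (-0.87, adjusted p = 0.138 by edgeR). Pcx, at -0.32 (SE 0.32), was not called (adjusted p = 0.473). This comparison shares its mice with those above and cannot tell the fat from the extract.

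**Figure D3:**
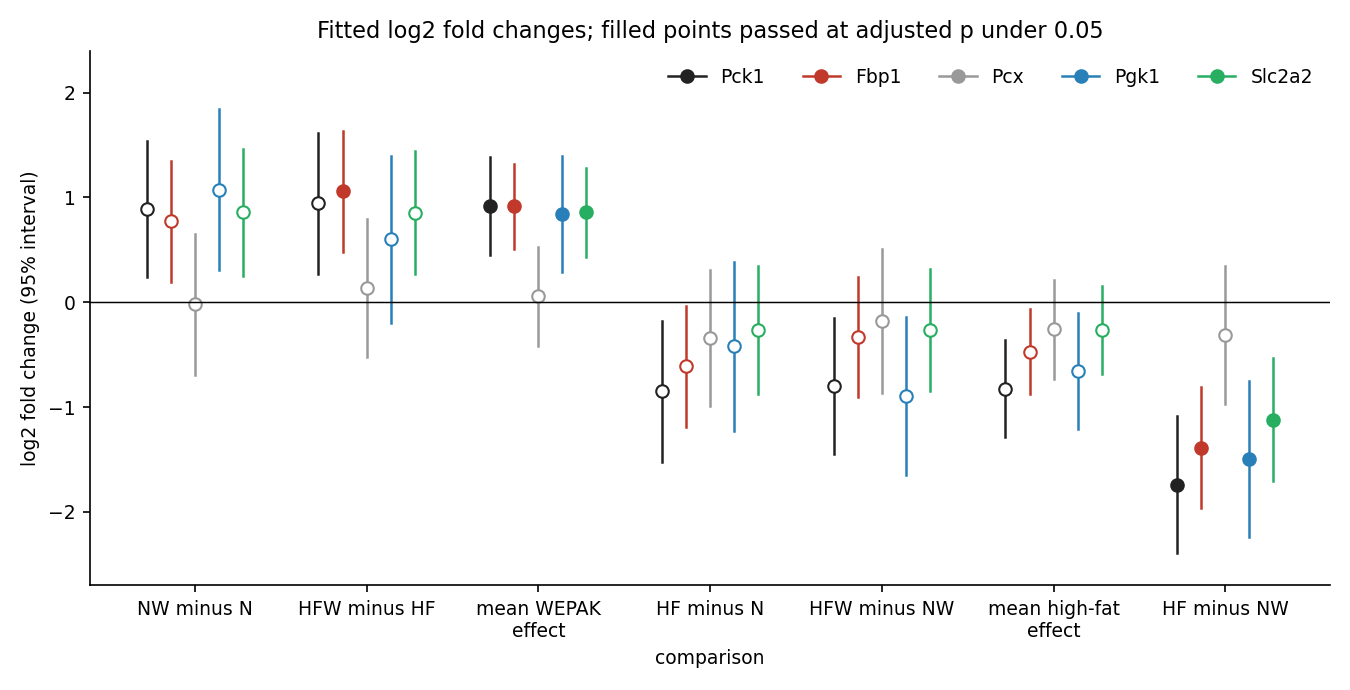
Fitted log2 fold change (vertical axis, point) with its 95% interval (line) of the 5 tested genes in 7 comparisons (horizontal axis); filled points passed at an adjusted p under 0.05. The 4 filled points for WEPAK over both diets lie between 0.84 and 0.92, and Pcx is near 0 in the 3 extract comparisons.

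Library depth and hepatocyte markers moved with the groups. The log2 level of the 5 tested genes correlated with log2 library total at r between -0.56 (Slc2a2) and -0.30 (Fbp1) over the 16 mice, a description in which the deep HF libraries take part. With every library thinned to 56655 tags, Pck1, Fbp1 and Slc2a2 still rose with WEPAK over both diets. The summed level of the 9 hepatocyte markers, to which Apoa2 gave the most tags, had medians of 107618 CPM in NW, 90581 in HFW, 79186 in N and 69387 in HF, the same order as Pck1, Fbp1, Slc2a2 and Pgk1. Its range was 100912 to 123753 CPM in NW, 63823 to 94564 in HFW, 71528 to 101544 in N and 64131 to 76260.4 in HF. HFW mouse 34, with the most Pck1 of its group, had the lowest hepatocyte sum of all 16 mice. Of the Kupffer cell markers 7 of 8 had tags and Cd68 was at 0. Their summed level was lower in median with the extract on both diets, at 155 CPM in NW (115 to 233) against 288 in N (209 to 375) and at 178 in HFW (79.0 to 276) against 244 in HF (95.7 to 353), and the groups overlapped on each diet. Of the stellate cell markers 7 of 8 had tags and Rgs5 was at 0. Their sum had medians of 865 CPM in N (619 to 1210), 879 in NW (462 to 1206), 1124 in HF (618 to 4505) and 2010.0 in HFW (967 to 4613), and the 4613 CPM was that of HFW mouse 34. All 7 markers of sinusoidal endothelium had tags, with medians of 881 CPM in N (525 to 1025), 825 in NW (481 to 825), 959.6 in HF (904 to 1088) and 813 in HFW (744 to 878). For cholangiocytes 3 of 5 had tags, with 0 to 105 CPM in single mice and Krt19 and Krt7 at 0. The part of depth and of RNA from hepatocytes or these other cells in the extract effect was not tested.

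Correlations among the 4 genes that rose were lower within groups than across them. Their group means rise together with the extract, so part of the correlation across groups was fixed by picking them. Over the 16 mice the log2 levels of Pck1 correlated with those of Slc2a2 at r = 0.73, of Pgk1 at 0.73 and of Fbp1 at 0.63, and Fbp1 with Slc2a2 at 0.77. After group means were removed the same pairs gave 0.39, 0.28, -0.0091 and 0.40. These describe mice that share libraries and feeding groups and carry no test. Counting alone gives a coefficient of variation of 28.8% for Pgk1 and 15.6% for Pck1, and its part in the lower values was not tested. The ratio of Fbp1 to Pck1 tags, which needs no scaling, ran from 2.79 in N mouse 8 to 13.6 in HFW mouse 40. In HFW mice 34, 36, 38 and 40 the ratio was 3.80, 4.54, 9.76 and 13.6. Pck1 is the divisor, so a mouse with much Pck1, such as HFW mouse 34 or N mouse 8, tends to a low ratio by construction. In the NW mice the ratio was 4.11, 4.49, 4.39 and 7.51.

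Other genes around glucose metabolism did not move in 1 direction. Of the 136 genes of 12 lists reported here, 117 had at least 1 tag, and 17 had enough to be tested. Of these 17, 2 rose and 2 fell with WEPAK over both diets, where 15.2% of all genes were called higher and 16.1% lower, and their median log2 fold change was -0.035 against 0.025 over all genes. Of the other genes of gluconeogenesis, enzymes and carriers, 2 of 11 were tested, both of them carriers, and neither passed. Slc37a4, which carries glucose-6-phosphate into the endoplasmic reticulum, had -0.035 (SE 0.28), and the mitochondrial dicarboxylate carrier Slc25a10 had 0.030 (SE 0.22). The enzymes on this list had too few tags to be tested.

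Among the reversible steps shared with glycolysis, 2 genes are described for WEPAK over both diets, and neither passed by edgeR. The glucose-6-phosphate isomerase Gpi1 had 0.18 (SE 0.22), and Ldha, a subunit of lactate dehydrogenase, -0.54 (SE 0.24; adjusted p = 0.0812). On the normal diet alone Ldha fell by 1.10 on the log2 scale (SE 0.35; adjusted p = 0.0370 by edgeR), from 670.3 ± 275 CPM in N to 311 ± 48.5 in NW. That call held in 1 of the 8 fits that left out a mouse of either group, the one without N mouse 5, and among the other 7 the adjusted p was highest without N mouse 8 (-0.78, adjusted p = 0.130). It was also lost with limma-voom (adjusted p = 0.0730), no filter (adjusted p = 0.0881), thinned libraries (adjusted p = 0.0697) and without N mice 4 and 8 (-0.68, adjusted p = 0.352).

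The 1 tested gene of the pentose phosphate pathway, Pgd, which makes NADPH, fell with WEPAK by 0.93 on the log2 scale (SE 0.29; adjusted p = 0.0147, edgeR quasi-likelihood F test). Its level went from 386 ± 243 CPM (SD, n = 4) in N to 169 ± 69.4 in NW and from 533 ± 156 in HF to 323 ± 172 in HFW. For amino acid carbon 4 of 11 genes were tested, 1 rose and 1 fell. Tdo2, which opens the tryptophan ring, rose with WEPAK by 1.10 (SE 0.28; adjusted p = 0.00320 by edgeR), from 110.1 ± 36.0 CPM in N to 277 ± 47.2 in NW and from 93.1 ± 46.8 in HF to 167 ± 58.1 in HFW. It also rose on the normal diet alone (1.34, adjusted p = 0.0207), a call lost without N mouse 4 or 5 or NW mouse 11, 12 or 15, with an adjusted p of up to 0.0902, and also with no filter (adjusted p = 0.161) and without N mice 4 and 8 (adjusted p = 0.130). Gpt2, a mitochondrial alanine aminotransferase, fell by 0.63 (SE 0.24; adjusted p = 0.0396), a call lost in 6 of 7 alternatives that kept all mice or left out N mice 4 and 8. The adjusted p was 0.0558 with DESeq2, 0.0627 with limma-voom, 0.0536 with at least 10 counts in 4 libraries, 0.0646 with thinned libraries, 0.137 with no filter and 0.131 without N mice 4 and 8. It was also lost in 10 of 16 fits with a mouse left out, which were those without HF mouse 25, HFW mouse 34, 36 or 40, N mouse 4, 7 or 8, or NW mouse 11, 15 or 20, with an adjusted p of up to 0.102 without N mouse 7. Gpt, its cytosolic relative, had 0.44 (SE 0.22), and Glud1, glutamate dehydrogenase, had -0.37 (SE 0.20).

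Among transcription regulators of gluconeogenesis 1 of 2 genes described rose. Creb3l3, a liver transcription factor held in the endoplasmic reticulum membrane, rose with WEPAK by 0.69 on the log2 scale (SE 0.20; adjusted p = 0.0102, edgeR quasi-likelihood F test). Its level went from 3077 ± 958 CPM (SD, n = 4) in N to 4216 ± 558 in NW and from 1908 ± 634 in HF to 3650.0 ± 1261 in HFW. With no filter it did not pass (0.56, adjusted p = 0.0859). On the high-fat diet alone Creb3l3 rose by 0.93 (adjusted p = 0.0339 by edgeR), a call lost without HF mouse 23 or 25 or HFW mouse 36, 38 or 40, with an adjusted p of up to 0.132, and with no filter (0.69, adjusted p = 0.308). Hnf4a, at 0.38 (SE 0.22), was not called. Foxo1, Ppargc1a and Creb1, which act on the Pck1 and G6pc promoters, had 17, 5 and 5 tags in all libraries together and were below the filter.

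For glycolysis, pyruvate oxidation, carriers, glycogen, fructose and hormone response 1 gene each was tested and 0 passed by edgeR in the extract effect over both diets. The log2 fold changes were -0.30 (SE 0.30) for pyruvate kinase Pklr, -0.42 (SE 0.20) for the pyruvate dehydrogenase subunit Pdha1, 0.17 (SE 0.24) for the carrier Slc2a1, -0.086 (SE 0.27) for glycogen phosphorylase Pygl, 0.37 (SE 0.21) for sorbitol dehydrogenase Sord and -0.14 (SE 0.24) for the glucagon receptor Gcgr. Of 5 genes of glycerol entry 0 had enough tags. The liver glycogen synthase Gys2 had 71 tags in all and was below the filter.

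**Figure D4:**
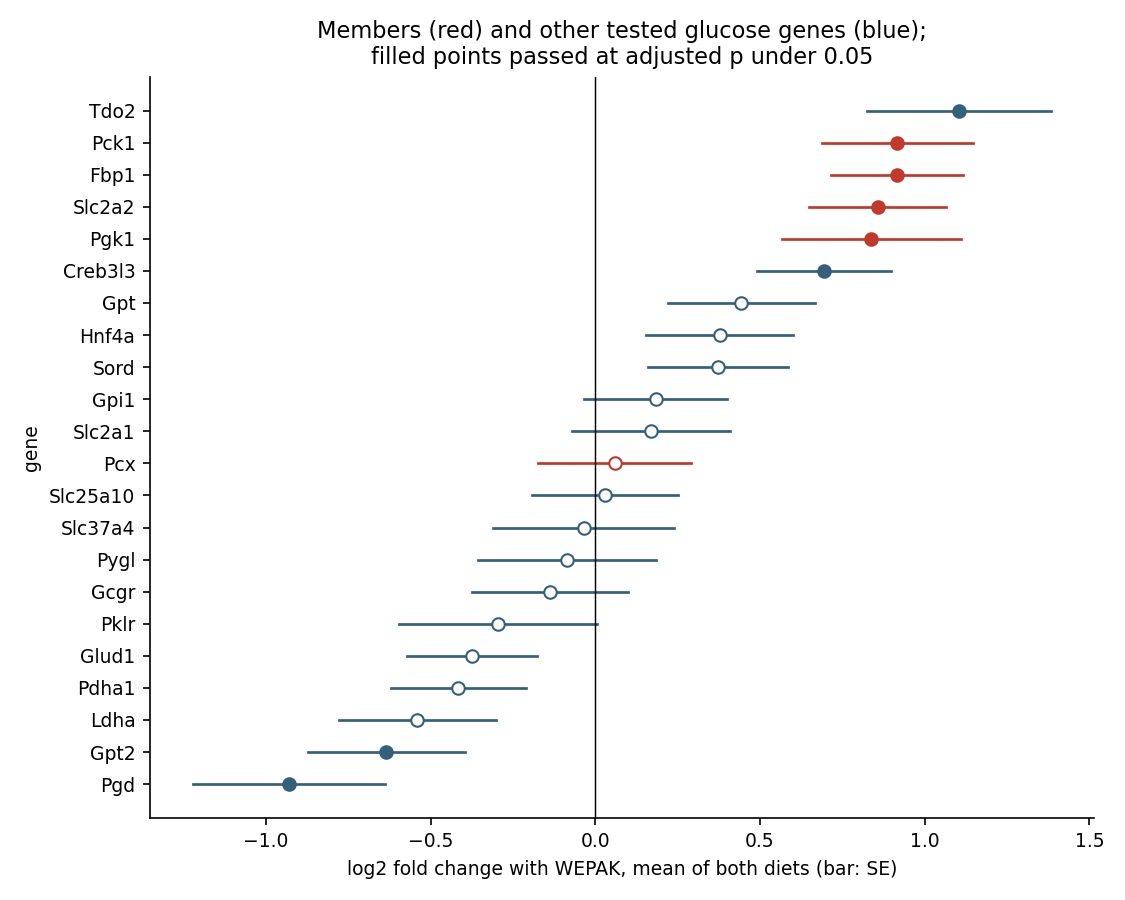
Log2 fold change with WEPAK over both diets (horizontal axis, point, with its SE as a line) for the 5 tested members in red and 17 other tested glucose genes in blue (vertical axis); filled points passed at an adjusted p under 0.05. Of the filled points 4 members and 2 other genes lie to the right of 0, and 2 other genes to the left.

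Tested genes whose log2 level over the 16 mice was most like a member's were listed by Pearson correlation. For Pck1 these were Pzp (r = 0.91), Itih3 (0.90) and Eef1b2 (0.85), for Fbp1 Cbs (0.90) and Atp13a1 (0.90), and for Slc2a2 Wdr89 (0.93), Slc25a5 (0.88) and Fn1 (0.87). Pgk1 was most like Gc (0.85), Arfgef2 (0.84) and Zzef1 (0.83), and Pcx like Ppap2b (0.79), Atg9a (0.73) and Arl8b (0.72). These names fall outside the lists of glucose genes.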

How the data were processed

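The deposited table holds raw SuperSAGE tag counts per RefSeq transcript, made by the authors and given in 1 column per mouse, per the file headers. Per the labels, oligo-dT cDNA was cut with NlaIII and EcoP15I and the tags were amplified by PCR; no molecular identifiers are named, so counting limits cover counting error only. The sources used here do not give the aligner, the RefSeq release or the treatment of shared tags. Rows without a symbol (417, 0.0729% of tags) were left out, 40 of 41 symbols turned into dates were restored, and rows were summed per symbol. The 24 pairs of libraries within groups all differed by more than sampling noise (chi-square over degrees of freedom from 2.24 to 9.64).

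Counts were fitted in R 4.3.3 with edgeR 4.0.16 over all 16 libraries (trimmed mean of M-values scaling, filterByExpr by group with a minimum count of 10, robust quasi-likelihood F test, Benjamini-Hochberg adjustment over 1046 genes at 0.05). Standard errors came from the fitted weights and quasi-dispersion, and a prior count of 2 was added for log2 CPM. Alternatives were DESeq2 size factors, 2 other filters, the DESeq2 1.42.0 Wald test, limma-voom (limma 3.58.1), fits of the compared groups alone, thinning to the smallest library, separate tests of the RefSeq rows, and each mouse left out in turn; leaving out N mice 4 and 8 was added after seeing the data. Members and lists were chosen with earlier results of these data known. Named besides the 7 members were the listed genes past the threshold and up to 4 others per list with the smallest p, and the 3 genes most like each member; names with too few tags to be tested were chosen after their values were seen. Each library is 1 mouse, so p-values measure the spread between mice. Tag sequences and coordinates came from GENCODE M21 (GRCm38), promoters from RefSeq (GRCm38.p6). A few results of listed genes and motifs are not reported here, and the counts over the lists leave those genes out.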

Additional observations from a re-analysis of the deposited data

Results flagged for a closer look

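In 2 of 20 groups of 4 mice the highest mouse stood apart from the other 3 by more than a gap test at the 95% level allows, a rule that chance meets in about 1 of 20 groups. Pck1 in HFW mouse 34 was at 904 CPM, and the next mouse of the group was at 474 CPM. Pcx in NW mouse 11 was at 519.7 CPM, and the next was at 275 CPM.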

How the results depend on the processing

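No paired analysis was possible because the mouse numbers are not shared between groups. The extract effect over both diets called 4 members under the scaling, filter, test and row alternatives, except 2 with no filter, 3 with thinned libraries and 3 without N mice 4 and 8, and 3 to 4 when a mouse was left out. Of all genes 2.50% were called with no filter, 32.8% with thinned libraries and 19.6% without N mice 4 and 8. With a mouse left out the share ran from 21.8% to 32.1%. In HFW against HF the count of 1 became 0 with no filter and 2 with the compared groups alone, and 0 to 2 with a mouse left out. Of all genes 1.04% were called with no filter and 11.2% with the compared groups alone. The fits with 2 left out HF mouse 28, HF mouse 29 or HFW mouse 36, where 14.1%, 10.5% and 7.66% were called. In NW against N the count of 0 became 2 with DESeq2 or with at least 10 counts in 4 libraries, 1 with limma-voom or thinned libraries, and 0 to 3 with a mouse left out. Of all genes 9.92% were called with at least 10 counts in 4 libraries and 13.1% with thinned libraries. The 3 came without N mouse 8, where 14.6% of all genes were called. The high-fat effect called 1 with DESeq2, where 6.31% of all genes given an adjusted p were called, and 0 to 2 with a mouse left out. The 2 came without N mouse 4, where 8.88% of all genes were called.

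Directions turned only for values with no call, and the cause was not tested. The Pck1 difference between extract effects became -0.000559 with DESeq2 size factors, -0.084 with limma-voom, -0.14 with no filter and -0.16 without N mice 4 and 8, and ran from -0.39 to 0.26 with a mouse left out; that of Fbp1 ran from -0.032 to 0.47 and that of Slc2a2 from -0.33 to 0.12. The Pcx extract effect became -0.067 with no filter and -0.028 with thinned libraries, and ran from -0.075 to 0.18. In HFW against N, Pck1 ran from -0.24 to 0.49 and Pgk1 from -0.032 to 0.38. In HF against N, Slc2a2 became 0.011 with thinned libraries and ran from -0.38 to 0.028.

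Depth limits Pgk1 most: at a mean of 12.1 tags per library counting alone gives a coefficient of variation of 28.8%, against 6.41% for Fbp1. G6pc and Eno1 had too few tags to pass the filter and were not tested.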
